A study of Mus musculus with 6 samples.

Results

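Transcript levels of the death receptor Fas and of 8 members of the BCL2 family, Bcl2, Bcl2l1, Mcl1, Bax, Bak1, Bid, Bbc3 and Pmaip1, were examined in mouse myocardium by RNA sequencing. The 9 genes were taken by symbol from the 55401 genes listed per complete library. Each symbol matched 1 Ensembl identifier in the GRCm38 annotation. The DM libraries came from the myocardium of male WT mice injected with STZ (streptozotocin), which kills pancreatic beta cells and was given to establish diabetes. The Ctrl libraries came from the myocardium of male WT mice injected with PBS. Both groups held 3 libraries with a time label of 8 weeks. The strain, age and dose, and the event from which the time runs, were not stated in the labels. Nor do they state that each library is a separate animal, so all p-values measure only how these libraries vary, and part of that may be technical.

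Levels are in FPKM, which divides the fragments of a gene by its transcript length and by the library's mapped fragments, so that different genes can be compared. FPKM summed to 531384 to 589719 in the 5 complete libraries, and the number of fragments behind each value is unknown. Ctrl3 listed 7711 genes, 6 of the 9 genes among them. The comparison was therefore fitted on DM1, DM2, DM3, Ctrl1 and Ctrl2, with Ctrl3 set beside them where it listed a gene. Mitochondrial genes made up 42.0% to 45.5% of the total in DM libraries and 47.1% to 47.3% in Ctrl libraries. The cardiac markers Myh6 and Tnnt2 were abundant in every library that listed them. The atrial myosin Myl7 stood at 357, 73.7 and 0.28 FPKM in DM1, DM2 and DM3, and at 262, 37.9 and 0.21 FPKM in Ctrl1, Ctrl2 and Ctrl3. Its level thus differed widely between libraries of the same group, and fell from replicate 1 to replicate 3 in both groups.

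Apoptosis can start at the cell surface or at the mitochondrion. Fas, when bound by its ligand, recruits the adaptor FADD and caspase-8. At the mitochondrion BAX and BAK form pores in the outer membrane that release cytochrome c. BCL2, BCL-XL (the product of Bcl2l1) and MCL1 hold BAX and BAK in check, and the BH3-only proteins BID, PUMA (Bbc3) and NOXA (Pmaip1) relieve that restraint. Caspase-8 cleaves BID, which links both routes. In the adult heart MCL1 is known to be needed for the survival of cardiomyocytes.

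The windows around the transcription start of Fas and of Bcl2l1, the pair with the largest differences between DM and Ctrl, are shown for their sequence. Both are RefSeq sequences of the build GRCm38.p6, from 250 bases before to 50 bases after the start, written in the direction of transcription. Fas lies on the plus strand (chr19:34290409-34290708) and the outermost of 3 annotated Bcl2l1 starts on the minus strand (chr2:152831679-152831978). Each window spans the promoter and the beginning of the first exon. Capitals mark matches on either strand to the GC box GGGCGG, the AP-1 motif TGANTCA, the GAS motif of STAT factors TTCNNNGAA and the forkhead motif TGTTTAC.
Fas: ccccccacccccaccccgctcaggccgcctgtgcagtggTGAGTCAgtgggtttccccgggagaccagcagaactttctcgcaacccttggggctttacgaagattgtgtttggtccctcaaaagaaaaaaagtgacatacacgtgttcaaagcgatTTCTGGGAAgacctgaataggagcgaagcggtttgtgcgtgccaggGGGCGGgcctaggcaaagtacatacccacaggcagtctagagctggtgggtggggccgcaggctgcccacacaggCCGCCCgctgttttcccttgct
Bcl2l1: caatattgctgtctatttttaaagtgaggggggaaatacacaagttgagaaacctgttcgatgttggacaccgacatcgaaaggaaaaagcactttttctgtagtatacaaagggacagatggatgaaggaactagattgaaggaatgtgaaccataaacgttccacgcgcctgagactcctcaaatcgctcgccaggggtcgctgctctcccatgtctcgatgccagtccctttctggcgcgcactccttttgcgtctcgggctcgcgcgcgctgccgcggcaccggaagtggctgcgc
The Fas window held 2 matches to the GC box, 1 to the AP-1 motif and 1 to the GAS motif, none of which overlapped another. Among 32851 promoter windows of the same length, 35.7% held the GC box, 7.81% the AP-1 motif, 8.3% the GAS motif and 3.65% the forkhead motif. The Bcl2l1 window shown, and the windows of its other starts, held 0 matches to these 4 motifs. Windows were found for 8 of the 9 genes. The GC box matched 7 times in the Bcl2 window, 3 times each in those of Bax and Bid, 1 time in that of Mcl1, 4 to 7 times in the 3 Bbc3 windows and 0 times in that of Bak1. The AP-1 and GAS motifs matched in the Fas window alone among those of the 8 genes, and the forkhead motif in 1 Bbc3 window. A match describes the letters and was not tested as a binding site.

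Fas was higher in DM hearts than in Ctrl hearts. Fas (ENSMUSG00000024778, chromosome 19, 34290666 to 34327772, GRCm38, plus strand) stood at 11.2, 8.82 and 11.3 FPKM in DM1, DM2 and DM3, against 4.84, 3.55 and 5.97 FPKM in Ctrl1, Ctrl2 and Ctrl3. Every DM library lay above every Ctrl library. In bulk tissue a change in the number of cells that make a transcript cannot be told apart from a change in its RNA per cell. Fas averaged 10.5 ± 1.42 FPKM in DM libraries (SD, n = 3) and 4.20 ± 0.912 FPKM in the fitted Ctrl libraries (SD, n = 2). On the log2(FPKM + 1) scale, which understates changes of low genes, the fold change was 1.14 ± 0.17 (SE, 95% interval 0.73 to 1.56, limma adjusted p = 0.0244). With Ctrl3 added it was 1.00 (limma adjusted p = 0.0195). The call depended on several single libraries. Fas did not pass without Ctrl1 (limma adjusted p = 0.102), without Ctrl2 (limma adjusted p = 0.156), without DM1 (limma adjusted p = 0.0572) or without DM3 (limma adjusted p = 0.0566), although its log2 fold change stayed between 0.96 and 1.32. Without DM2 it passed (limma adjusted p = 0.0371). With no filter on low values, where 26229 genes were tested, Fas did not pass either (limma adjusted p = 0.0853).

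Of the 9 genes, 6 reached 1 FPKM in at least 2 fitted libraries and were tested, and Fas alone passed the threshold of an adjusted p of 0.05. Over all 11556 genes tested 5.82% passed, 3.64% as higher and 2.17% as lower in DM. The groups did not overlap for 3 of the 6, namely Fas, Bcl2l1 and Bbc3, all higher in DM. Such separation was found in 47.4% of all tested genes, in 28.7% with DM higher. Set against all 3 Ctrl libraries, Fas, Bcl2l1 and Bbc3 were still apart, as were 41.9% of the 4811 tested genes listed in Ctrl3. The share of the genes past the threshold that were higher in DM was 62.6% with the deposited FPKM, 48.5% with medians centred, 50.2% with quantile normalization and 73.1% with TPM. Members that did not reach the filter, Bcl2, Bid and Pmaip1, are given as values.

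**Figure D1:**
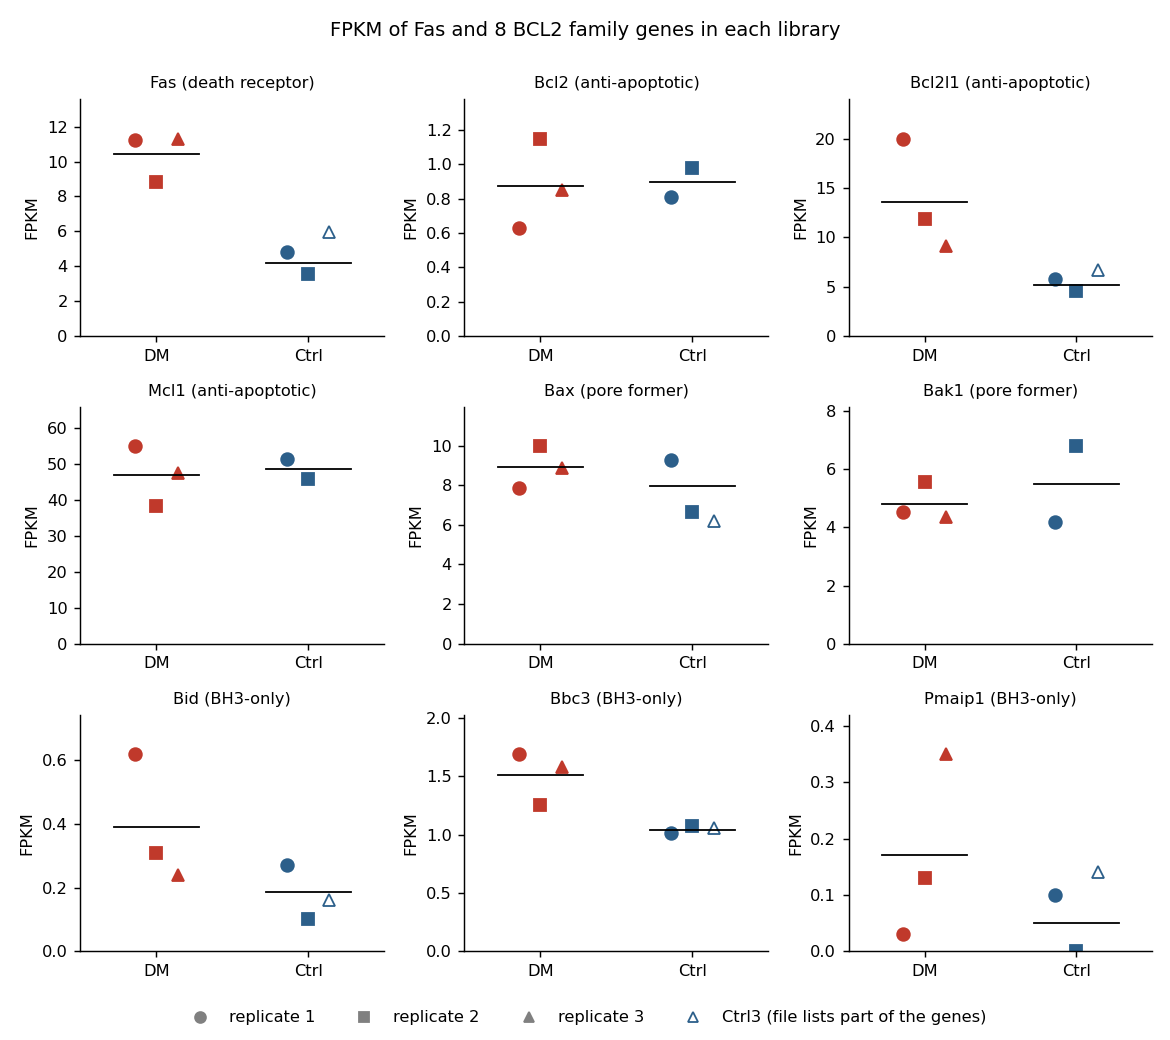
FPKM (vertical axes, each from 0) of the 9 genes, with DM libraries left and Ctrl libraries right, symbols for the replicate number, an open triangle for Ctrl3 and a line for the mean of DM1 to DM3 or of Ctrl1 and Ctrl2. DM and Ctrl points are apart for Fas, Bcl2l1 and Bbc3 and overlap for the other 6 genes.

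Among the anti-apoptotic genes, Bcl2l1 had higher values in every DM library than in any Ctrl library without passing the threshold, while Mcl1 and Bcl2 had groups that overlapped. Bcl2l1 (ENSMUSG00000007659, chromosome 2, 152780668 to 152831728, minus strand) stood at 20.0, 11.8 and 9.08 FPKM in DM1, DM2 and DM3, against 5.76, 4.56 and 6.71 FPKM in Ctrl1, Ctrl2 and Ctrl3. Its lowest DM value, in DM3, exceeded its highest Ctrl value, in Ctrl3, and the DM libraries spread more widely than the Ctrl libraries. The means were 13.6 ± 5.69 FPKM in DM (SD, n = 3) and 5.16 ± 0.849 FPKM in Ctrl (SD, n = 2), a ratio of 2.64. The log2 fold change was 1.19 ± 0.31 (SE, 95% interval 0.44 to 1.93) and did not pass (limma adjusted p = 0.0766). With Ctrl3 added the log2 fold change was 1.08 ± 0.27 (SE) and passed (limma adjusted p = 0.048), in a fit that called 12.4% of the 4811 tested genes listed in Ctrl3, 7.84% as higher in DM. DM1, the library with the highest Bcl2l1, was also the one with the highest Myl7, and the part of atrial transcripts was not tested. Without DM1 the log2 fold change of Bcl2l1 was 0.89 (limma adjusted p = 0.0735). Bcl2l1 gives rise to a long anti-apoptotic and a short pro-apoptotic protein by splicing, which a value per gene cannot separate.

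Mcl1 (ENSMUSG00000038612, chromosome 3, 95658788 to 95663176, plus strand) was the most abundant of the 9 genes in every fitted library. It stood at 54.8, 38.3 and 47.5 FPKM in DM1, DM2 and DM3, against 51.3 and 45.8 FPKM in Ctrl1 and Ctrl2. The DM values lay on both sides of the Ctrl values. The log2 fold change was -0.06 (95% interval -0.49 to 0.36, limma adjusted p = 0.85), an interval that does not reach the fold change of Fas or Bcl2l1, and its sign turned after rescaling to TPM (0.0056). Bcl2 (ENSMUSG00000057329, chromosome 1, 106538178 to 106714274, minus strand) stood at 0.63, 1.15 and 0.85 FPKM in DM1, DM2 and DM3, against 0.81 and 0.98 FPKM in Ctrl1 and Ctrl2. The groups overlapped, and with no filter on low values the log2 fold change was -0.02 (limma adjusted p = 0.951). An opposite-strand gene covers 6.09% of the Bcl2 exons.

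The pore-forming genes did not separate the groups. Bax (ENSMUSG00000003873, chromosome 7, 45461697 to 45466898, minus strand) stood at 7.85, 9.97 and 8.89 FPKM in DM1, DM2 and DM3, against 9.28, 6.66 and 6.18 FPKM in Ctrl1, Ctrl2 and Ctrl3. Ctrl1 lay among the DM values and the other Ctrl libraries below them. The log2 fold change was 0.15 ± 0.17 (SE, 95% interval -0.27 to 0.57, limma adjusted p = 0.615), and 0.25 with Ctrl3 added (limma adjusted p = 0.329). Bak1 (ENSMUSG00000057789, chromosome 17, 27019810 to 27029009, minus strand) stood at 4.52, 5.55 and 4.37 FPKM in DM1, DM2 and DM3, against 4.18 and 6.79 FPKM in Ctrl1 and Ctrl2. The Ctrl libraries held both the lowest and the highest Bak1 value, and the log2 fold change was -0.13 (95% interval -0.62 to 0.36, limma adjusted p = 0.712). Without Ctrl2 the log2 fold changes of Bax (-0.059) and Bak1 (0.16) had the opposite sign. Exons of another gene cover 12.2% of the Bax exons on the same strand and 18.2% of the Bak1 exons on the opposite strand. Reads could be shared there, since no source used here gives the strand setting of the counting.

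Of the BH3-only genes, Bbc3 was slightly higher in DM without passing, and Bid and Pmaip1 were barely detected. Bbc3 (ENSMUSG00000002083, chromosome 7, 16308393 to 16318205, plus strand), the p53 target that encodes PUMA, stood at 1.69, 1.25 and 1.58 FPKM in DM1, DM2 and DM3, against 1.01, 1.07 and 1.06 FPKM in Ctrl1, Ctrl2 and Ctrl3. All DM libraries lay above all Ctrl libraries, as they did for 26.1% of the tested genes listed in Ctrl3. The log2 fold change was 0.29 ± 0.14 (SE, 95% interval -0.05 to 0.64, limma adjusted p = 0.242), and 0.29 with Ctrl3 added (limma adjusted p = 0.149). Bid (ENSMUSG00000004446, chromosome 6, 120891930 to 120916853, minus strand) stood at 0.62, 0.31 and 0.24 FPKM in DM1, DM2 and DM3, against 0.27, 0.1 and 0.16 FPKM in Ctrl1, Ctrl2 and Ctrl3. DM3 lay below Ctrl1, and exons of Bcl2l13 on the opposite strand cover 17.7% of the Bid exons. Pmaip1 (ENSMUSG00000024521, chromosome 18, 66458533 to 66465565, plus strand) stood at 0.03, 0.13 and 0.35 FPKM in DM1, DM2 and DM3, against 0.1 and 0.14 FPKM in Ctrl1 and Ctrl3, and was listed at 0 in Ctrl2. The highest value was in DM3 and the next highest in Ctrl3. At such levels no difference was detectable.

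Ordered by mean FPKM, the 9 genes ran Mcl1, Bcl2l1, Fas, Bax, Bak1, Bbc3, Bcl2, Bid and Pmaip1 in DM libraries, and Mcl1, Bax, Bak1, Bcl2l1, Fas, Bbc3, Bcl2, Bid and Pmaip1 in Ctrl libraries. Bcl2l1 and Fas thus stood above Bax and Bak1 by mean in DM and below them in Ctrl. Not all of these steps exceeded the spread. In DM libraries the values of Bcl2l1 and Fas overlapped, as did those of Fas and Bax, while Bak1 lay apart from Bax. In Ctrl libraries Bax overlapped with Bak1, Bak1 with Bcl2l1, and Bcl2l1 with Fas. In both groups Mcl1 stood apart at the top, Bbc3 and Bcl2 stood apart from their neighbours, and Bid and Pmaip1 overlapped at the bottom.

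The balance of pro- to anti-apoptotic transcripts was taken as the summed FPKM of Bax, Bak1, Bid, Bbc3 and Pmaip1 over that of Bcl2, Bcl2l1 and Mcl1. It does not depend on how a library is scaled, and it is given without a test. The pro-apoptotic sum was 14.7, 17.2 and 15.4 FPKM in DM1, DM2 and DM3, against 14.8 and 14.6 FPKM in Ctrl1 and Ctrl2. The anti-apoptotic sum was 75.5, 51.2 and 57.5 FPKM in DM1, DM2 and DM3, against 57.9 and 51.3 FPKM in Ctrl1 and Ctrl2. The ratio was 0.195, 0.336 and 0.268 in DM1, DM2 and DM3, against 0.257 and 0.285 in Ctrl1 and Ctrl2. The DM libraries held both the lowest and the highest ratio, and the means of 0.266 ± 0.0705 in DM (SD, n = 3) and 0.271 ± 0.0201 in Ctrl (SD, n = 2) differed by less than the spread between libraries.

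That sum was dominated by Mcl1, which made up 72.6%, 74.7% and 82.7% of the anti-apoptotic FPKM in DM1, DM2 and DM3, against 88.6% and 89.2% in Ctrl1 and Ctrl2. Bcl2l1 made up 26.5%, 23.1% and 15.8% in DM1, DM2 and DM3, against 9.96% and 8.89% in Ctrl1 and Ctrl2. The anti-apoptotic transcripts therefore held a larger part of Bcl2l1 in every DM library, while Bcl2 made up at most 2.24% in any of the 5 libraries. With Mcl1 left out of the sum the ratio was 0.712, 1.33 and 1.55 in DM1, DM2 and DM3, against 2.26 and 2.64 in Ctrl1 and Ctrl2. Without Mcl1 all DM libraries lay below the Ctrl libraries, by a mean of -1.10 on the log2 scale. The anti-apoptotic sum was then 20.7, 13.0 and 9.93 FPKM in DM1, DM2 and DM3, against 6.57 and 5.54 FPKM in Ctrl1 and Ctrl2. Most of it was Bcl2l1 in every library, and the pro-apoptotic sums overlapped. This separation thus restated that of Bcl2l1, which did not pass the threshold (limma adjusted p = 0.0766).

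Ctrl3 listed Bax, Bid, Bbc3 and Pmaip1 and, of the anti-apoptotic genes, Bcl2l1. Over these 5 genes the ratio was 0.509, 0.986 and 1.22 in DM1, DM2 and DM3, against 1.85, 1.72 and 1.12 in Ctrl1, Ctrl2 and Ctrl3. Ctrl3 lay below DM3, so the separation seen with Ctrl1 and Ctrl2 did not hold with the third Ctrl library. The ratio of Bax to Bcl2, often used as an index of apoptotic tendency, was 12.5, 8.67 and 10.5 in DM1, DM2 and DM3, against 11.5 and 6.80 in Ctrl1 and Ctrl2, and the groups overlapped. With each gene weighted equally, the balance was the mean log2 level of the pro-apoptotic genes minus that of the anti-apoptotic genes. It was -2.08, -1.78 and -1.71 in DM1, DM2 and DM3, against -1.66 and -1.59 in Ctrl1 and Ctrl2. DM libraries lay below Ctrl libraries by a mean of -0.23, with DM3 close to Ctrl1. Whether the groups separated thus depended on how the balance was formed. In each form that set DM below Ctrl1 and Ctrl2, Bcl2l1 had more weight than in the sum with Mcl1.

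**Figure D2:**
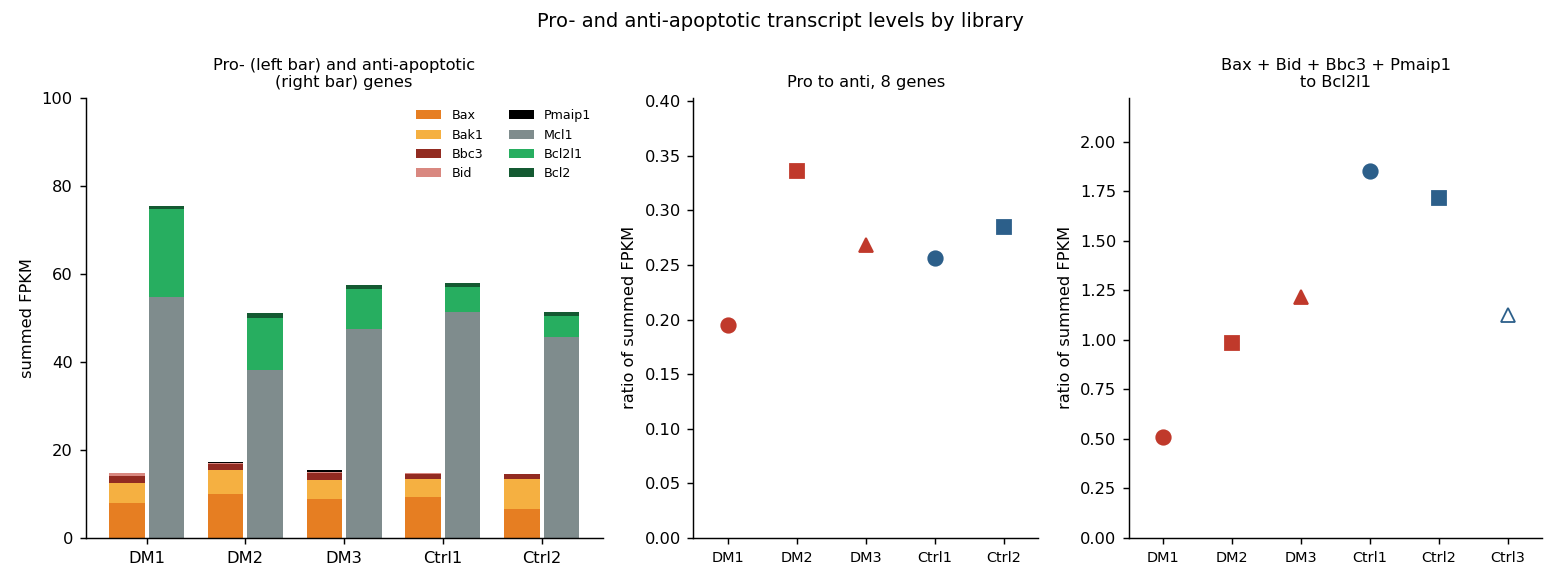
Left, summed FPKM in each complete library, stacked by gene, with the pro-apoptotic genes in the left bar and the anti-apoptotic genes in the right bar; middle, the ratio of these sums; right, the ratio over the 5 genes that Ctrl3 lists, with Ctrl3 as an open triangle. DM libraries (red) span 0.195 to 0.336 in the middle panel, around the Ctrl libraries (blue) at 0.257 and 0.285, and Ctrl3 at 1.12 lies below DM3 at 1.22 in the right panel.

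The other genes of the pathway were described by lists of 66 genes, of which 49 were tested, 2 rose and 1 fell, where 5.82% of all tested genes passed. DM values lay wholly above Ctrl1 and Ctrl2 in 18 of the 49 and wholly below in 6, beside 28.7% above and 18.8% below over all tested genes. Their median log2 fold change was 0.15, beside 0.06 over all tested genes. In the death receptor list 9 of 14 genes were tested and 0 passed (1 had an unadjusted p under 0.05 in limma), with a median log2 fold change of 0.21. The share of all tested genes under an unadjusted p of 0.05 was not counted, so such counts, here and below, have no background beside them. Such p-values were common, since the limma p of 0.0483 for Nppa became 0.184 after adjustment. Fasl, the ligand of Fas, stood at 0.02 FPKM in DM1 and was listed at 0 in DM2 and DM3, against 0.03 FPKM in Ctrl1 and 0 in Ctrl2 and Ctrl3. The TNF receptor Tnfrsf1a averaged 18.9 ± 2.42 FPKM in DM (SD, n = 3) and 14.9 ± 0.969 FPKM in Ctrl (SD, n = 2), with a limma adjusted p of 0.229. The adaptor Fadd averaged 3.34 FPKM in DM and 3.09 FPKM in Ctrl (limma adjusted p = 0.697), and the kinase Ripk1 1.36 FPKM in DM and 0.775 FPKM in Ctrl (limma adjusted p = 0.119).

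In the list of other BCL2 family genes, 9 of 14 were tested, Bnip3 rose and 0 fell, beside 3.64% higher and 2.17% lower over all tested genes. Of the 9, 5 had an unadjusted p under 0.05 in limma. DM values lay wholly above Ctrl1 and Ctrl2 in 5 of the 9, beside 28.7% of all tested genes. Bnip3 (chromosome 7, 138890836 to 138909519, minus strand), a mitophagy receptor of the outer mitochondrial membrane, stood at 109, 112 and 92.0 FPKM in DM1, DM2 and DM3, against 59.7 and 54.7 FPKM in Ctrl1 and Ctrl2 (log2 fold change 0.85 ± 0.14 SE, limma adjusted p = 0.0266). It did not pass without Ctrl1 (limma adjusted p = 0.179), Ctrl2 (0.203), DM1 (0.0585) or DM2 (0.0584), and an opposite-strand gene covers 22.3% of its exons. Its relative Bnip3l averaged 14.4 ± 0.5 FPKM in DM (SD, n = 3) and 11.0 ± 0.311 FPKM in Ctrl (SD, n = 2), with a limma adjusted p of 0.108 and, with Ctrl3 added, of 0.0437. The fit with Ctrl3 called 12.4% of the 4811 tested genes listed in Ctrl3. The anti-apoptotic Bcl2l2 averaged 9.24 FPKM in DM and 9.65 FPKM in Ctrl (limma adjusted p = 0.807), with a log2 fold change whose 95% interval ran from -0.42 to 0.29.

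By role, 8 BH3-only genes were measured, Bid, Bbc3 and Pmaip1 among them, of which 5 were tested and 0 passed (3 had an unadjusted p under 0.05 in limma). Bcl2l11, which encodes the FoxO-controlled activator BIM, stood at 2.56, 2.25 and 2.47 FPKM in DM1, DM2 and DM3, against 1.55, 1.01 and 0.96 FPKM in Ctrl1, Ctrl2 and Ctrl3 (limma adjusted p = 0.0728, and 0.0271 with Ctrl3 added). Bik stood at 3.97, 3.51 and 3.22 FPKM in DM1, DM2 and DM3, against 2.21, 2.4 and 1.58 FPKM in Ctrl1, Ctrl2 and Ctrl3 (limma adjusted p = 0.0864, and 0.0414 with Ctrl3 added). Both, like Bbc3 and Bmf, had DM values wholly above all Ctrl values listed, whereas Bad had groups that overlapped. Such separation with DM higher was found in 28.7% of all tested genes against Ctrl1 and Ctrl2, and in 26.1% of those listed in Ctrl3 against all 3 Ctrl libraries. With Ctrl3 added the fit called 12.4% of the 4811 tested genes listed in Ctrl3, 7.84% as higher in DM. The summed FPKM of the 8 genes was 13.8, 13.5 and 14.0 in DM1, DM2 and DM3, against 9.33 and 9.95 in Ctrl1 and Ctrl2. Every DM sum lay above both Ctrl sums, and Bcl2l11 and Bik were singled out after their values had been seen.

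**Figure D3:**
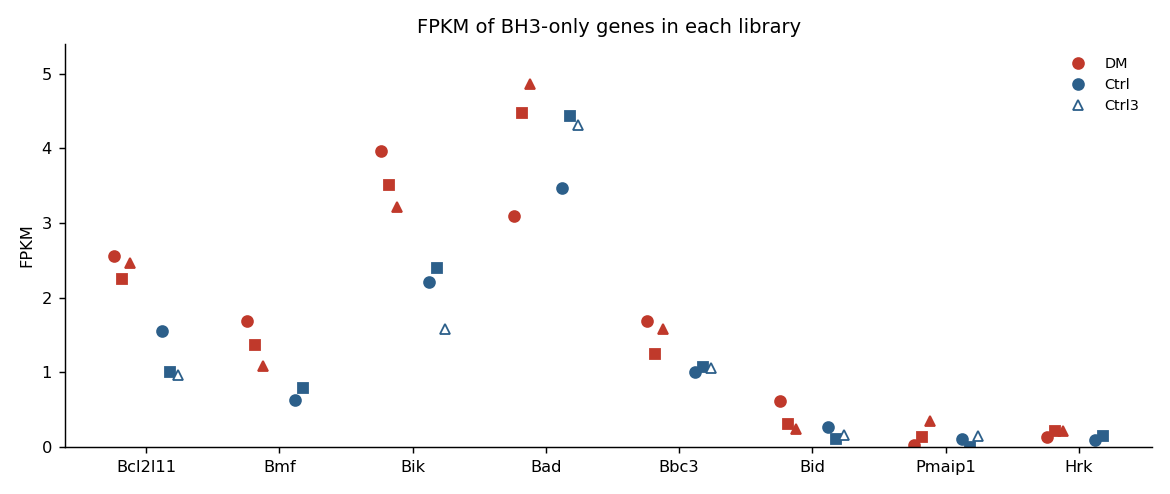
FPKM (vertical axis) of 8 BH3-only genes in each library, DM (red) left and Ctrl (blue) right of each gene, with circles, squares and triangles for replicates 1, 2 and 3 and Ctrl3 as an open triangle. Bcl2l11, Bmf, Bik and Bbc3 have DM points above the Ctrl points, while Bad, Bid, Pmaip1 and Hrk have points that overlap.

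Downstream of the mitochondrion, 10 of 13 genes of the apoptosome and caspase list were tested and 0 passed (3 had an unadjusted p under 0.05 in limma), with a median log2 fold change of -0.11. Cytochrome c (Cycs) averaged 191 ± 6.29 FPKM in DM (SD, n = 3) and 180 ± 16.8 FPKM in Ctrl (SD, n = 2), with a limma adjusted p of 0.652. The mitochondrial nuclease Endog averaged 24.3 ± 1.04 FPKM in DM and 31.7 ± 2.47 FPKM in Ctrl (limma adjusted p = 0.12, and 0.0484 with Ctrl3 added). The fit with Ctrl3 called 12.4% of the 4811 tested genes listed in Ctrl3. The DNA fragmentation factor subunit Dffa, named after its values had been seen, stood at 3.55, 5.18 and 4.89 FPKM in DM1, DM2 and DM3, against 8.71, 7.19 and 6.35 FPKM in Ctrl1, Ctrl2 and Ctrl3 (limma adjusted p = 0.0728). With Diablo and Aifm1, Endog and Dffa were the 4 tested genes of this list whose DM values lay wholly below Ctrl1 and Ctrl2, and 0 lay wholly above, beside 18.8% below and 28.7% above over all tested genes. Of 5 inhibitors of apoptosis 4 were tested and 0 passed (1 had an unadjusted p under 0.05 in limma). The ubiquitin ligase Birc2 averaged 5.87 FPKM in DM and 4.08 FPKM in Ctrl (limma adjusted p = 0.0773), and Xiap 4.41 FPKM in DM and 3.95 FPKM in Ctrl (limma adjusted p = 0.646).

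Fas, Bax, Bbc3 and Pmaip1 are known targets of p53, so p53 and 19 other genes it controls were listed. Of these 20 genes 17 were tested, and 7 had an unadjusted p under 0.05 in limma. Perp rose and Ccng1 fell, beside 3.64% higher and 2.17% lower over all tested genes. The median log2 fold change was 0.22, beside 0.06 over all tested genes. DM values lay wholly above Ctrl1 and Ctrl2 in 8 of the 17, beside 28.7% of all tested genes. They lay wholly below in 2, beside 18.8%. Perp (chromosome 10, 18845020 to 18857073, plus strand), a membrane protein of desmosomes, stood at 112, 116 and 97.2 FPKM in DM1, DM2 and DM3, against 51.7, 59.2 and 53.9 FPKM in Ctrl1, Ctrl2 and Ctrl3 (limma adjusted p = 0.0212). Cyclin G1 (Ccng1, chromosome 11, 40748552 to 40755311, minus strand) stood at 123, 121 and 93.2 FPKM in DM1, DM2 and DM3, against 199, 186 and 199 FPKM in Ctrl1, Ctrl2 and Ctrl3 (limma adjusted p = 0.0449). The list thus held genes that moved in both directions. Perp did not pass without Ctrl1 (limma adjusted p = 0.186), Ctrl2 (0.13) or DM1 (0.0504). Ccng1 did not pass without Ctrl1 (limma adjusted p = 0.284), Ctrl2 (0.217), DM1 (0.0641) or DM2 (0.0709), nor after rescaling to TPM (0.075) or without mitochondrial genes (0.0528). With no filter on low values the limma adjusted p was 0.0691 for Perp, 0.0770 for Bnip3 and 0.117 for Ccng1, so none of these passed. The p53 gene itself, Trp53, stood at 2.83, 3.68 and 3.5 FPKM in DM1, DM2 and DM3, against 3.03 and 2.89 FPKM in Ctrl1 and Ctrl2. Sesn1, a stress-induced regulator of mTORC1 signalling, stood at 72.9, 34.6 and 44.7 FPKM in DM1, DM2 and DM3, against 28.6 and 26.6 FPKM in Ctrl1 and Ctrl2 (limma adjusted p = 0.158), with its highest value in DM1 as for Bcl2l1. The antiproliferative gene Btg2 stood at 14.5, 54.7 and 13.5 FPKM in DM1, DM2 and DM3, against 16.7, 9.87 and 13.3 FPKM in Ctrl1, Ctrl2 and Ctrl3, high in DM2 alone.

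**Figure D4:**
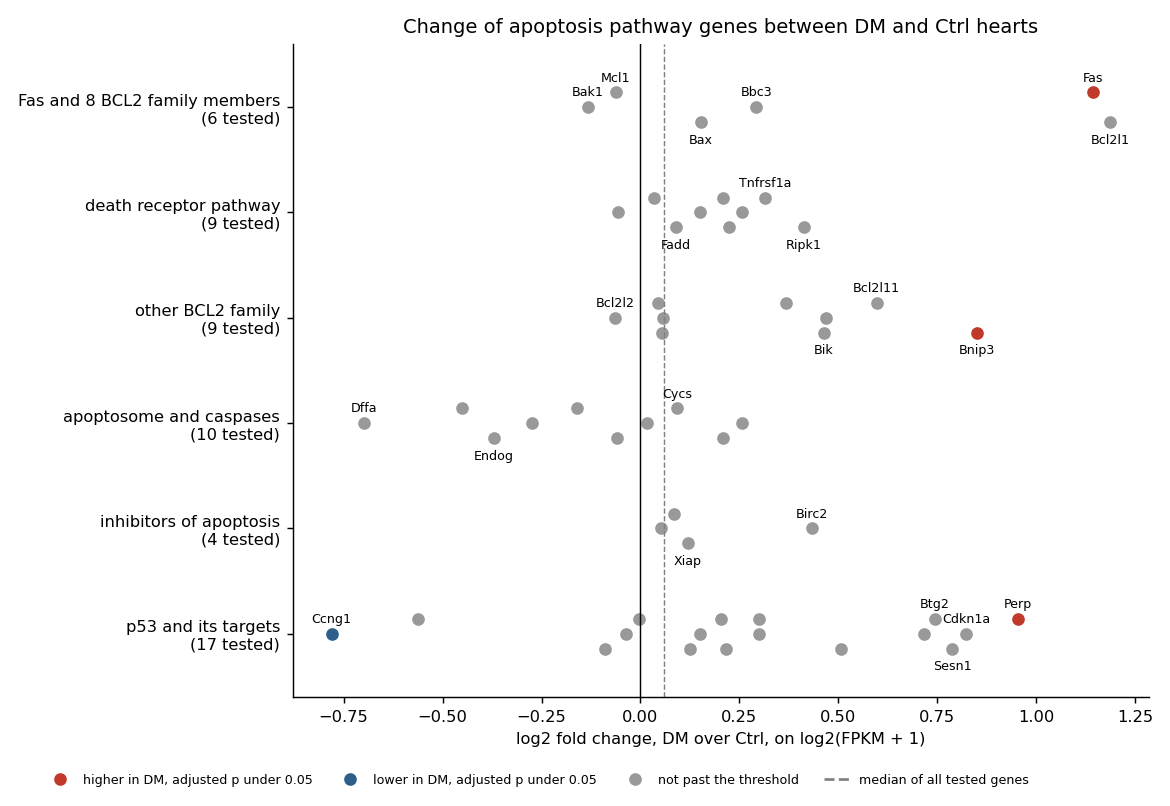
Log2 fold change of DM over Ctrl on log2(FPKM + 1) (horizontal axis) for each tested gene, in rows by list, with red for genes that rose, blue for genes that fell, gray for genes past no threshold and a dashed line at the median of all tested genes (0.06). Fas and Bcl2l1 lie farthest to the right, at 1.14 and 1.19, and the coloured points are Fas, Bnip3, Perp and Ccng1.

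Fas is made by many cell types, so markers of the cells a heart sample can hold were set beside it. The summed FPKM of 10 neutrophil markers ran from 43.1 to 63.9 in DM libraries and stood at 3.66 and 8.30 in Ctrl1 and Ctrl2. Of the 10 markers 3 were tested and all 3 passed as higher in DM, beside 3.64% of all tested genes. These 3, S100a8, S100a9 and Retnlg, held most of the sum. Among the untested markers Cxcr2, Mmp8, Ngp and Ltf had DM values wholly above Ctrl1 and Ctrl2. Csf3r, Ly6g and Camp had groups that overlapped. The sum of 10 markers of T and NK cells ran from 0.42 to 1.34 FPKM in DM and stood at 0.37 and 1.09 FPKM in Ctrl, and 0 of the 10 reached the filter. B cell markers summed to 0.08 to 0.52 FPKM in DM and to 0.23 and 0.51 FPKM in Ctrl. The sum of 10 endothelial markers ran from 174 to 219 FPKM in DM and stood at 161 and 164 FPKM in Ctrl, with 0 of 10 past the threshold (4 had an unadjusted p under 0.05 in limma). These markers did not all move alike, and 7 of the 10 had a positive log2 fold change. DM values lay wholly above Ctrl1 and Ctrl2 in 5, beside 28.7% of all tested genes. They lay wholly below in 1, Kdr, beside 18.8%. Macrophage markers summed to 154 to 220 FPKM in DM and to 203 and 229 FPKM in Ctrl. Of these 10 markers 9 were tested and 0 passed. In 3 of the 9 DM values lay wholly below Ctrl1 and Ctrl2, and in 0 wholly above. Fibroblast markers summed to 438 to 492 FPKM in DM and to 452 and 490 FPKM in Ctrl, a sum held mostly by Gsn, with over 300 FPKM in every library. Of these 10 markers 3 were lower in DM, namely Col1a1 (log2 fold change -1.67, limma adjusted p = 0.00806), Pi16 (-1.33, 0.0105) and Col1a2 (-0.92, 0.0259). Over all tested genes 2.17% passed as lower in DM. In 4 of the 10 fibroblast markers DM values lay wholly below Ctrl1 and Ctrl2, and in 3 wholly above. Cardiomyocyte markers summed to 8631 to 10383 FPKM in DM and to 9742 and 10682 FPKM in Ctrl. Of these 10 markers 0 passed, while DM values lay wholly below Ctrl1 and Ctrl2 in 4 and wholly above in 2. For the macrophage, fibroblast and cardiomyocyte lists too, the shares over all tested genes were 18.8% below and 28.7% above. Of these markers 0 were at 0 in every library. The neutrophil and endothelial sums were higher in every DM library than in Ctrl1 and Ctrl2, as Fas and Bcl2l1 were. Within DM both sums were lowest in DM1 and highest in DM2, where Cldn5 stood at 43.4 FPKM. Fas was lowest in DM2 among the DM libraries, and Bcl2l1 was highest in DM1. The part of these cells in the values of Fas and Bcl2l1 was not tested.

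The 5 genes whose pattern was most like that of Fas over the 5 complete libraries, by Pearson's r of log2(FPKM + 1), were Crtc2, Dcaf13, Atp10d, Hipk1 and Ptpdc1, each with an r of 0.998. Crtc2 stood at 5.22, 4.63 and 5.4 FPKM in DM1, DM2 and DM3, against 3.2, 2.8 and 3.59 FPKM in Ctrl1, Ctrl2 and Ctrl3. Hipk1 stood at 9.52, 8.37 and 9.72 FPKM in DM1, DM2 and DM3, against 5.74, 5.12 and 5.55 FPKM in Ctrl1, Ctrl2 and Ctrl3. In all 5 genes DM2 was the lowest DM library and Ctrl2 the lower fitted Ctrl library, as in Fas. Their choice by r with Fas over the same libraries favours that shared order, so it adds nothing to r. With 5 libraries in 2 groups a high r is easily reached, and 990 tested genes had an r of at least 0.9, a looser likeness than 0.998. Among the other members r with Fas was 0.91 for Bbc3, 0.86 for Bcl2l1, 0.45 for Bax, 0.06 for Mcl1 and -0.54 for Bak1.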

How the data were processed

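Per the file headers the authors deposited FPKM per gene, 1 file per library, rounded to 2 decimals. Per the submitters' processing notes the tools were StringTie 1.3.4d, HISAT2 2.0.4 and cutadapt 1.9, and the build was GRCm38. For annotation release, strand setting and filters nothing is given in the sources used here. Per the labels' protocols poly(A) RNA was sequenced with dUTP-marked second strands. Identifiers were matched to GENCODE M21 of the same build (55141 of 55401 had a symbol). A library listing under 50% of the genes, Ctrl3, was left out of the fit.

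The test was limma 3.58.1 (R 4.3.3, eBayes with trend, two-sided) on log2(FPKM + 1), whose pseudocount is 1, for genes reaching 1 FPKM in 2 or more fitted libraries, adjusted by Benjamini-Hochberg over all 11556 genes tested. No covariate was used. The fit was tested on simulated data. Depth is unknown, so no counting interval is given. Members, lists and tests were chosen with earlier results of these data known. Beside the members, each list's genes past the threshold and its 2 most abundant others are named. Ripk1, Bcl2l11, Bmf, Bik, Bad, Dffa, Aifm1, Diablo, Trp53 and Fasl were named beyond that rule, for their role or after their values were seen. Alternatives covered pseudocount, filter, scaling, variance model, replicate block, Ctrl3 and each library left out. A result for 1 listed gene is not reported here.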

Additional observations from a re-analysis of the deposited data

How the results depend on the processing

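The main comparison called 672 genes and 1 of the 9 members. With no filter on low values 81 genes and 0 members passed, with Ctrl3 added 1169 genes and 2 members, and with 1 library left out 24 to 398 genes and 0 to 1 member. With the replicate number as a block, where DM3 has no partner, 64 genes and 0 members passed, and the adjusted p was 0.0588 for Fas, 0.0588 for Bnip3, 0.0537 for Perp and 0.0736 for Ccng1 (limma). Deviations of same-numbered libraries correlated at 0.08 and -0.03. The deviations of the 2 fitted Ctrl libraries mirror each other, so these values cannot decide whether the numbers mark pairs. Myl7 fell from replicate 1 to replicate 3 in both groups. The main fit took the libraries as unpaired, and whether they were paired was not tested. In the other 9 alternatives Fas passed and 540 to 701 genes were called. The difference in log2 balance, -0.06 in the main comparison, ran from -0.24 to 0.15 with 1 library left out. It was -1.10 without Mcl1, and -0.85 and -1.07 over the genes listed in Ctrl3, with and without Ctrl3.

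The log2 fold changes that changed sign in these alternatives were of genes that did not pass. Mcl1 was 0.0056 and Bcl2, which did not reach the filter, 0.013 after rescaling to TPM, Cycs -0.087 after quantile normalization and Bcl2l2 0.036 under the block. Bad was -0.025 after quantile normalization, -0.025 after median centring, -0.021 after rescaling without mitochondrial genes and -0.058 under the block. With 1 library left out Mcl1 ran from -0.18 to 0.074, Bax from -0.059 to 0.37, Bak1 from -0.43 to 0.16, Fadd from -0.011 to 0.19, Bcl2l2 from -0.15 to 0.036, Cycs from -0.0019 to 0.19 and Bad from -0.10 to 0.20. The cause was not tested. Low FPKM limits Bcl2, Bid and Pmaip1, which the filter removed.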

Other observations

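Some pathway genes were high or low in 1 library of a group, and were picked for that reason after inspection. Casp9, the initiator caspase of the apoptosome, stood at 3.11, 1.89 and 0.45 FPKM in DM1, DM2 and DM3, against 2.02, 1.4 and 1.17 FPKM in Ctrl1, Ctrl2 and Ctrl3. Mdm4, an inhibitor of p53, stood at 1.06, 1.22 and 4.46 FPKM in DM1, DM2 and DM3, against 0.83 and 2.08 FPKM in Ctrl1 and Ctrl2. DM2, the library with high Btg2, also had the highest value of the endothelial junction gene Cldn5, with 14.2, 43.4 and 17.4 FPKM in DM1, DM2 and DM3, against 14.1 and 11.0 FPKM in Ctrl1 and Ctrl2. In the death receptor list the caspase-8 inhibitor Cflar had no such library, and its groups overlapped. Cflar stood at 2.36, 3 and 2.53 FPKM in DM1, DM2 and DM3, against 2.97, 2.57 and 3.15 FPKM in Ctrl1, Ctrl2 and Ctrl3.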
